A study of Rattus norvegicus with 18 samples.

Results

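The MAP kinase phosphatases and the Sprouty and Spred proteins switch off signals that run through the MAP kinases. This report describes 10 of their genes, Dusp1, Dusp2, Dusp4, Dusp5, Dusp6, Dusp10, Spry1, Spry2, Spry4 and Spred1, in the proximal stump of the rat sciatic nerve after transection. They were chosen by name, and every non-control probe that carries one of these names, or an accession of the gene, was taken. The 10 genes had 14 probes among 41012 probes for 35371 gene names.

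A MAP kinase is active only while it is phosphorylated on a threonine and a tyrosine, and dual-specificity phosphatases (Dusp) remove both phosphates. Sprouty proteins act further upstream, between growth factor receptors and Ras or Raf, and Spred1 holds Ras inactive together with neurofibromin. Many of these genes are themselves turned on by the kinases they restrain, and cut nerves are known for strong MAP kinase activity in their Schwann cells. RNA levels alone were measured here, and neither the proteins nor the activity of the kinases.

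The nerves came from adult male Sprague-Dawley rats of 180 to 220 g, in which a segment of 1 cm of the left sciatic nerve was removed. A piece of 0.5 cm of the proximal stump, the side that stays joined to the spinal cord, was taken directly (0 h, the uninjured reference) or 0.5, 1, 3, 6 or 9 h after the cut. Each of the 6 time points was measured on 3 Agilent arrays of 1 colour, 18 in all. The labels give 6 rats for each time point and do not say whether an array holds 1 rat or a pool, so the spread between arrays may be in part technical. The labels describe 1 anaesthesia and 1 operation for all groups. No sham-operated group is among the 18 arrays, so transection, anaesthesia and wound cannot be told apart.

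Values are log2 signals relative to the 75th percentile of their array, and a probe is called well above background by the scanner's own flag. On the 18 arrays 65.9% to 93.5% of spots were well above background, no spot was saturated, and arrays of 1 time point correlated at 0.958 to 0.993 over all probes. The first scan day held the 0 h and 0.5 h arrays, the second held all those of 1, 3 and 6 h and 2 of 9 h, and the remaining 9 h array was scanned on the third. Scan day and time therefore cannot be told apart for 1 h and later times against 0 h, while 0.5 h against 0 h, and 3 h or 6 h against 1 h, lie within 1 scan day. Each of the 9 slides held arrays of a single time point, with 0 h, 1 h and 6 h on 1 slide each, so slide and time cannot be told apart in these comparisons either. With slide as a random block (correlation -0.01) the only call of the genes described here that changed was Spry4 at 3 h against 1 h, which was gained (adjusted P = 0.0493). All 14 Schwann cell markers of a fixed list, such as Sox10, were well above background on all 3 arrays of 0 h, and so were 10 of 11 skeletal muscle markers. The summed muscle markers ran from 6.83 to 10.9 on the log2 scale over the 0 h arrays, between 6.05 and 7.21 over those of 0.5 h, between 2.17 and 6.69 over those of 1 h, and between 1.60 and 8.96 over the later ones. In whole tissue, fewer cells of a type and less RNA per cell cannot be told apart.

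The sequences that bear on 3 of the genes are shown first. Dusp1 and Spry1 had the closest courses of any pair among the 9 genes that could be tested, and Dusp5 had the largest rise, so the 250 bases before their start sites are given from RefSeq (build GRCr8, all on the + strand), at chr10:17184603-17184852, chr2:122485097-122485346 and chr1:262543524-262543773. Capitals mark TGACGTCA and its shorter part TGACG, both read on either strand and overlapping each other, and the CArG box, the element of serum response factor.
Dusp1: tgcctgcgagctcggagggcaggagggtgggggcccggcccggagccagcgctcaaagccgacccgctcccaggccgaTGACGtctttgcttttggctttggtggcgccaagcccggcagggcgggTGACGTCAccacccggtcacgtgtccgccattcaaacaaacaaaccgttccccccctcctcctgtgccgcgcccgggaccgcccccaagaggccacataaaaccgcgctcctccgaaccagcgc
Spry1: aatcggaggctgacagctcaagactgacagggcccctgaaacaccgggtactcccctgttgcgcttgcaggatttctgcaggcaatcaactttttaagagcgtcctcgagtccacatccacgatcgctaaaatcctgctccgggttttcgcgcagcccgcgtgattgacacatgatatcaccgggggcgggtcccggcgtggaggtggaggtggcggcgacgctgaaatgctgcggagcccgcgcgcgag
Dusp5: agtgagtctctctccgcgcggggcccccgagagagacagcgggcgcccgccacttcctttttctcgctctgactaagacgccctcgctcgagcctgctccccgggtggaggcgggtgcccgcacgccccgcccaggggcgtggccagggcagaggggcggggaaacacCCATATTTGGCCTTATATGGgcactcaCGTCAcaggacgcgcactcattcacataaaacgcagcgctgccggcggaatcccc
The Dusp1 window holds TGACGTCA from 124 to 117 bases before the start and TGACG again from 172 to 168 bases before it. The Dusp5 window holds 2 CArG boxes side by side, from 82 to 63 bases before the start, and TGACG on the other strand from 55 to 51 bases before it. None of the motifs is in the Spry1 window. Of the windows of all 33469 RefSeq starts, 1.59% hold TGACGTCA, 18.2% hold TGACG and 1.497% hold a CArG box. RefSeq windows were found for 9 of the 10 genes, with 1 window each apart from Spry2 with 2. Among these 9 genes 1 has TGACGTCA, 4 have TGACG, 1 has a CArG box and 0 have TGANTCA, the AP-1 element, which 6.34% of all windows hold. A match is a description of the letters and no evidence of binding.

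The probes that read Dusp1 and Dusp4 are shown because their places on the genome are longer than their 60 bases, so that each reads across a splice junction and measures spliced RNA.
Dusp1 probe: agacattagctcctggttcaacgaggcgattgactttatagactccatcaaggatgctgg
Dusp4 probe: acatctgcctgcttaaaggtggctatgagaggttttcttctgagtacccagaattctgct
On rn4, the build of the files, the Dusp1 probe covers chr10:16944342-16944661 (+ strand), 320 bases, and the Dusp4 probe chr16:61111773-61119563 (- strand), 7791 bases. The probes of the other genes lie without a gap, and exon or UTR status on rn4 was not analysed here.

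A gene was tested where some time point had all 3 of its arrays well above background, which held for 9 of the 10. Dusp10, a phosphatase of JNK and p38, was well above background on 0 of 18 arrays and so has no fold. Over the 6 time points limma's F-test called 8 of the 9, all but Dusp4, where 34.7% of 27270 gene names were called. To be called, a probe had to reach an unadjusted P-value under 0.01 and, after Benjamini-Hochberg adjustment over all tested probes, an adjusted one under 0.05. Within the second scan day, over its 4 time points, 6 of the 9 were called (Dusp1, Dusp2, Dusp5, Spry1, Spry4 and Spred1), where 19.2% of gene names were. Leaving out 1 array at a time kept 8 over all time points but brought that count to between 3 and 5, and 3 was reached without 1 h replicate 1 or 2, without 3 h replicate 2, and without 9 h replicate 1 or 2.

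Against the uninjured nerve 5 of the 9 genes were higher at 0.5 h, where 4.28% of all gene names were higher. The count was 5 at 1 h (3.59% of all), again 5 at 3 h (7.16%), 6 at 6 h (12.1%) and 5 at 9 h (15.8%). None was lower at any time, and at an unadjusted P-value under 0.05 limma also gave 0. Of all gene names 1.72% were lower after 0.5 h, 2.04% after 1 h, 6.83% after 3 h, 13% after 6 h and 15.4% after 9 h. At each of these shares a count of 0 among 9 genes is no result about them. The median difference of the 9 genes was 0.89 on the log2 scale at 0.5 h, then 0.88, 0.76, 1.08 and 0.73 in the order of time, beside 0.00 to 0.02 over all gene names. The calls were not of the same genes at each time, and 0.5 h and 1 h were not compared with each other. At 0.5 h the calls were Dusp1, Dusp5, Dusp6, Spry1 and Spry4, at 1 h Dusp2 stood in place of Spry4, and at 6 h they were Dusp2, Dusp4, Dusp5, Dusp6, Spry2 and Spred1. A second Spry4 probe, given below, was called at 1 h and not at 0.5 h. Dusp5 was the only one of the 9 called at all 5 times. Under normexp background correction, which moved the median of all gene names by 0.30 at 1 h and 0.44 at 3 h, the counts were 3, 2, 1, 2 and 3.

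**Figure D1:**
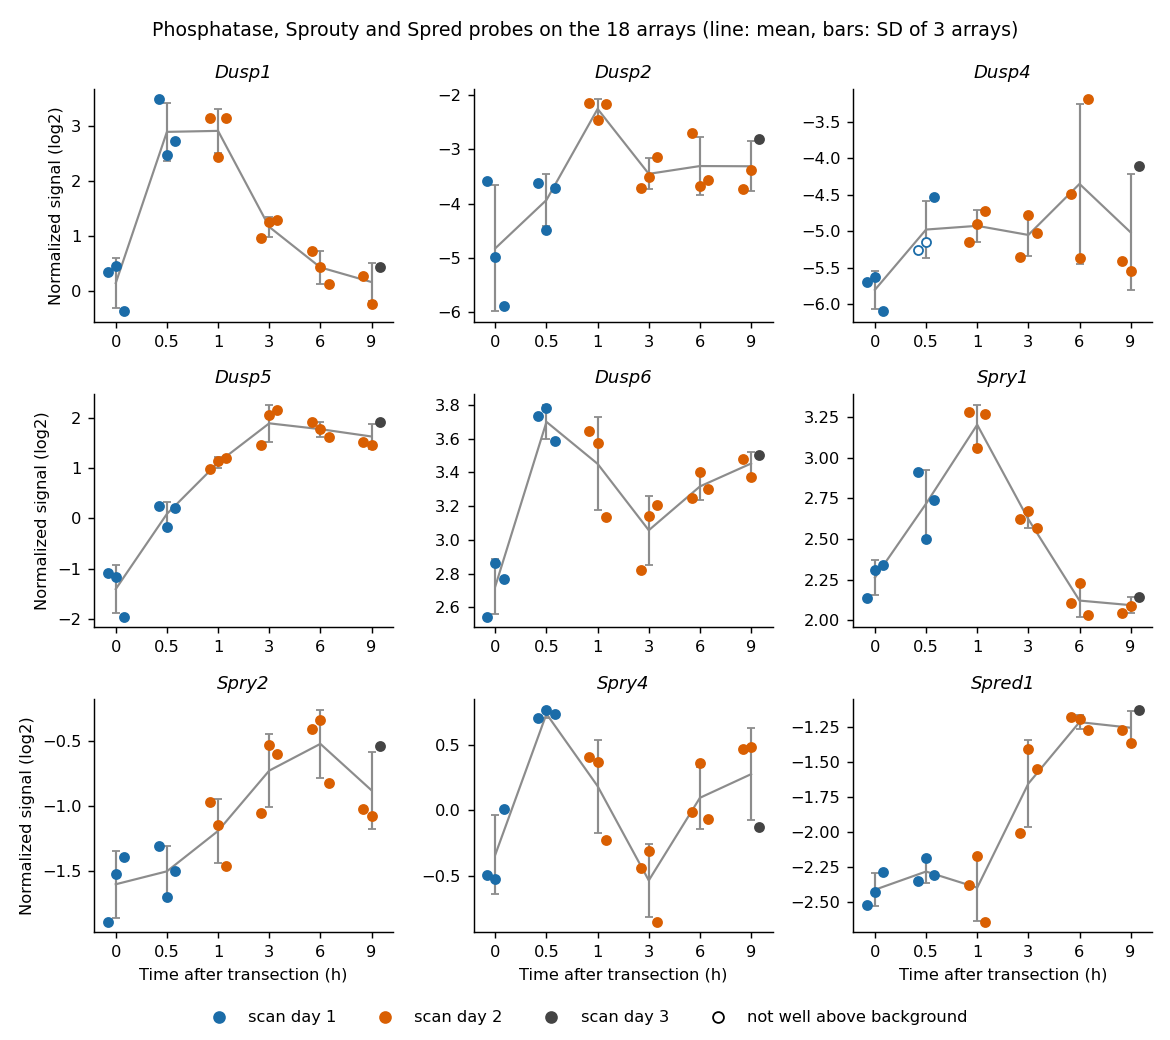
Normalized log2 signal of the reported probe of the 9 tested genes (vertical axis, own scale in each panel) against hours after transection. Points are the 18 arrays coloured by scan day, open points are not well above background, and lines and bars are the mean and SD of 3 arrays. Dusp1 and Spry1 stand highest at 0.5 h or 1 h and are near the 0 h level at 6 h and 9 h, Dusp5 stays above it, and Spred1 lies above it from 3 h on.

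Against 1 h, the earliest time of the second scan day, 2 of the 9 genes were higher at 3 h (Dusp5 and Spred1), where 5.59% of all gene names were, and 2 were lower (Dusp1 and Spry1), where 4.57% were. At 6 h 2 were higher (Spry2 and Spred1, 11.4% of all) and 2 lower (Dusp1 and Spry1, 12.6%). At 9 h 1 was higher (Spred1, 11.7%) and 2 lower (Dusp1 and Spry1, 13.8%). The median differences of the 9 genes were -0.39, -0.09 and 0.00 in the order of time, beside -0.04, -0.05 and -0.01 over all gene names.

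**Figure D2:**
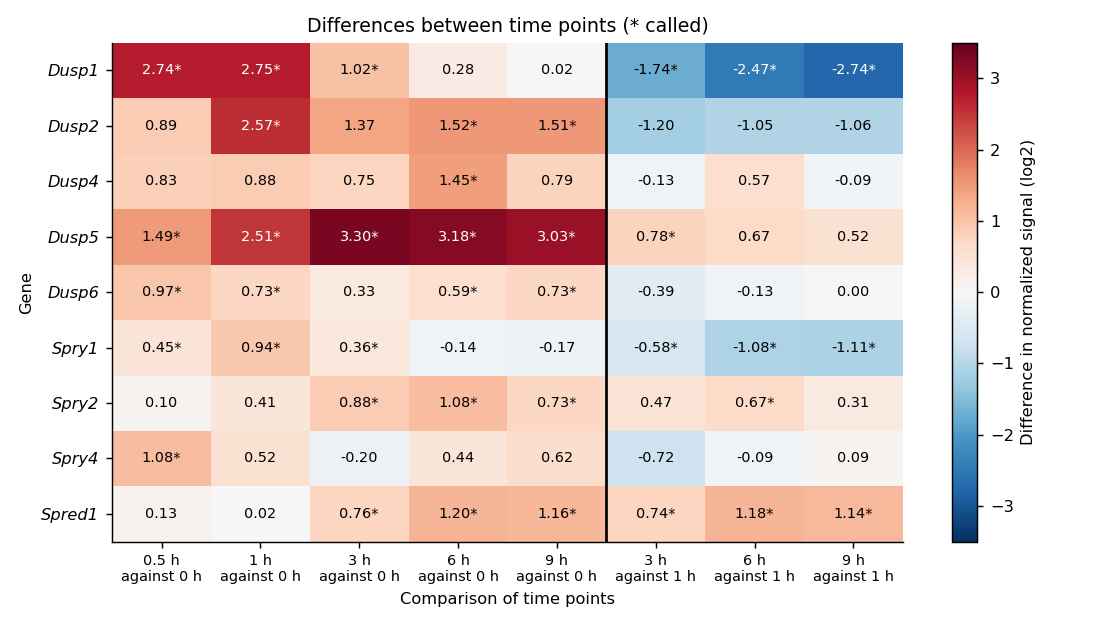
Difference in normalized log2 signal between time points for the 9 tested genes (rows), against 0 h left of the line and against 1 h right of it. Numbers and colours are the differences and an asterisk marks a call. Dusp1 and Spry1 are negative in all comparisons with 1 h, while Dusp5 and Spred1 are positive on both sides of the line.

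Dusp1 (MKP-1) is a nuclear phosphatase that acts on p38 and JNK as well as ERK, and a classic immediate early gene. On the log2 scale its signal read 0.35, 0.46 and -0.36 on the 0 h arrays and 3.47, 2.46 and 2.73 at 0.5 h. The 1 h arrays gave 3.13, 2.44 and 3.14, the 3 h arrays 0.96, 1.25 and 1.29, the 6 h arrays 0.73, 0.43 and 0.13, and the 9 h arrays 0.28, -0.22 and 0.45. All arrays of 0.5 h and 1 h lay above every other array, those of 3 h lay between, and those of 6 h and 9 h overlapped with 0 h. Dusp1 was 6.66-fold higher at 0.5 h than at 0 h (log2 difference 2.74, SE 0.30, n = 3 and 3, adjusted P = 0.000179). It was 6.74-fold higher at 1 h (adjusted P = 0.000153) and 2.02-fold higher at 3 h (adjusted P = 0.0358). Its differences from 0 h were 0.28 at 6 h and 0.02 at 9 h with SE 0.30 (adjusted P = 0.505 and 0.97). Dusp1 fell by 1.74 on the log2 scale from 1 h to 3 h (adjusted P = 0.00235), and by 6 h was 5.54-fold below 1 h (adjusted P = 8.02e-05), within 1 scan day. The call at 3 h against 0 h was lost without 0 h replicate 1 or 3 and without 3 h replicate 2 or 3 (adjusted P = 0.0505 to 0.139), and under normexp correction (0.151). It was also lost without the filter on dim probes (0.0537) and with only the 6 arrays of the contrast (0.055). The other calls of Dusp1 held under every alternative that was run.

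Dusp5, a nuclear phosphatase selective for ERK, had the largest and longest change of the 9 genes. The log2 signal of Dusp5 was -1.09, -1.17 and -1.95 in uninjured nerve, 0.25, -0.18 and 0.20 at 0.5 h, with 0.98, 1.15 and 1.199 at 1 h. Arrays of 3 h gave 1.47, 2.05 and 2.16, those of 6 h 1.92, 1.78 and 1.62, and those of 9 h 1.51, 1.46 and 1.92. The arrays of 0 h, 0.5 h and 1 h formed rising steps without overlap, and those of 3 h, 6 h and 9 h overlapped with each other and lay above all of 1 h. Dusp5 was 2.82-fold higher at 0.5 h (log2 difference 1.49, SE 0.23, adjusted P = 0.00273) and 5.72-fold higher at 1 h (adjusted P = 3.29e-05). It was 9.83-fold higher at 3 h (adjusted P = 1.38e-06), 9.07-fold at 6 h (adjusted P = 8.97e-07) and 8.20-fold at 9 h (adjusted P = 1.06e-06). Each of these 5 calls held under every alternative that was run, with differences at 3 h from 2.94 to 3.51. From 1 h to 3 h, within 1 scan day, it was 1.72-fold higher (adjusted P = 0.0447), a call that ended under 16 of 31 alternatives, among them leaving out any array of 1 h or 6 h, replicate 1 or 3 of 0.5 h, 2 or 3 of 3 h, or 1 or 2 of 9 h. The difference between 6 h and 1 h was 0.67 (SE 0.23, adjusted P = 0.0463, not called), and it was called under 10 of 31 alternatives, among them quantile normalization (adjusted P = 0.0409), the shift to the median (0.0317), and leaving out 0 h replicate 3 or 3 h replicate 1 (0.0184 and 0.0325).

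Dusp2 (PAC-1) is a nuclear phosphatase best known from activated leukocytes. Dusp2 had log2 signals of -3.59, -4.99 and -5.90 at 0 h, -3.61, -4.48 and -3.71 at 0.5 h, with -2.14, -2.46 and -2.16 at 1 h. Values of -3.70, -3.51 and -3.14 followed at 3 h, -2.69, -3.67 and -3.56 at 6 h, with -3.73, -3.39 and -2.82 at 9 h. The 0 h arrays spread over more than 2 log2 units, the widest spread of a time point for this gene, and only those of 1 h lay above all other arrays. Dusp2 was 5.94-fold higher at 1 h than at 0 h (log2 difference 2.57, SE 0.46, adjusted P = 0.00553), a call lost only under normexp correction (difference 1.81, adjusted P = 0.104). It was also called at 6 h (2.86-fold, adjusted P = 0.026) and at 9 h (2.85-fold, adjusted P = 0.0211), although arrays of both times overlapped with 0 h replicate 1. Normexp correction gave 0.73 and 0.74 in place of 1.52 and 1.51 for these times and ended both calls (adjusted P = 0.483 and 0.415). Both calls also ended with only the 6 arrays of the contrast (adjusted P = 0.135 and 0.103). Without 0 h replicate 2 or 3 both later calls were lost (adjusted P = 0.0639 to 0.117), as they were without 6 h replicate 1, and without 9 h replicate 2 or 3, each for its own time. Without 0 h replicate 1 the differences at 0.5 h and 3 h, 0.89 and 1.37 with all arrays, became 1.51 and 1.99 and were called, and those at 1, 6 and 9 h became 3.19, 2.13 and 2.13. After 1 h its arrays did not overlap with those of 3 h, 6 h or 9 h, but the differences of -1.199, -1.05 and -1.06 were not called (adjusted P = 0.12, 0.109 and 0.108). All 3 were called without 0 h replicate 1 (adjusted P = 0.0317 to 0.0388), which leaves the values and changes the estimate of the spread.

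Dusp4 (MKP-2), another nuclear phosphatase, was close to background, well above it on 16 of 18 arrays and not on replicates 1 and 2 of 0.5 h. Its arrays gave log2 signals of -5.69, -5.62 and -6.10 at 0 h, -5.25, -5.15 and -4.52 at 0.5 h, with -5.15, -4.91 and -4.72 at 1 h. Later they gave -5.35, -4.78 and -5.03 at 3 h, -4.49, -5.37 and -3.19 at 6 h, with -5.40, -5.54 and -4.10 at 9 h. The arrays of 1 h and later lay above all 3 of 0 h, and the 2 of 0.5 h that were not well above background have no measured order, while the F-test did not call the gene (adjusted P = 0.205). At 6 h the difference of 1.45 (SE 0.46, adjusted P = 0.0315) passed, but the 6 h arrays spread by 1.09 (SD) and without replicate 3 of 6 h the difference was 0.87 (adjusted P = 0.128). The call was also lost without any array of 0 h and without 6 h replicate 1 (adjusted P = 0.058 to 0.0982), and the difference was 0.80 under quantile normalization (adjusted P = 0.221) and 0.40 under normexp correction (adjusted P = 0.994).

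Dusp6 (MKP-3) is the cytoplasmic phosphatase of ERK and a common readout of ERK activity. Dusp6 had log2 signals of 2.54, 2.86 and 2.77 at 0 h, 3.73, 3.78 and 3.58 at 0.5 h, with 3.64, 3.57 and 3.14 at 1 h. Arrays of 3 h gave 2.82, 3.14 and 3.204, those of 6 h 3.25, 3.40 and 3.30, and those of 9 h 3.48, 3.38 and 3.503. The arrays of 0.5 h and 1 h overlapped with each other and lay above all of 0 h, those of 3 h overlapped with 0 h, and those of 6 h and 9 h again lay above all of 0 h. Dusp6 was 1.97-fold higher at 0.5 h (log2 difference 0.97, SE 0.14, adjusted P = 0.00153), a call that held under every alternative that was run. It was 1.65-fold higher at 1 h (adjusted P = 0.00826), 1.51-fold at 6 h (adjusted P = 0.0064) and 1.66-fold at 9 h (adjusted P = 0.00137). At 3 h the difference was 0.33 (adjusted P = 0.128). Within the second scan day it was not called (adjusted P = 0.246), so the lower values at 3 h than at 1 h or 9 h are a description. Without 1 h replicate 3 the difference of 3 h from 1 h, -0.39 with all arrays (adjusted P = 0.089), was -0.55 and called (adjusted P = 0.0181). After a shift to the median of each array, which lowers all gene names by 0.10 to 0.17 against 0 h, the calls at 1 h and 6 h were lost (adjusted P = 0.0577 and 0.0704), as they were under normexp correction. The 1 h call was also lost with only the 6 arrays of the contrast (adjusted P = 0.0543).

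Spry1, an inhibitor of receptor tyrosine kinase signals to Ras, moved early and briefly. Spry1 had log2 signals of 2.14, 2.31 and 2.34 at 0 h, 2.91, 2.50 and 2.74 at 0.5 h, with 3.28, 3.06 and 3.27 at 1 h. After that came 2.62, 2.67 and 2.57 at 3 h, 2.11, 2.23 and 2.03 at 6 h, with 2.05, 2.09 and 2.15 at 9 h. The arrays of 1 h lay above all others, those of 0.5 h and 3 h overlapped with each other and lay above 0 h, and those of 6 h and 9 h overlapped with 0 h. Spry1 was 1.92-fold higher at 1 h than at 0 h (log2 difference 0.94, SE 0.11, adjusted P = 0.000219), a call lost only under normexp correction (adjusted P = 0.0875). It was 1.37-fold higher at 0.5 h (adjusted P = 0.0246) and 1.28-fold at 3 h (adjusted P = 0.0378). From 1 h to 6 h, within 1 scan day, it fell by 1.08 on the log2 scale (adjusted P = 1.76e-05), and 9 h lay 2.16-fold below 1 h (adjusted P = 1.04e-05). The calls at 0.5 h and 3 h were lost under 8 of 31 and 13 of 30 alternatives, at 0.5 h without 0 h replicate 1 or 2 or 0.5 h replicate 1 or 3, and at 3 h without any array of 0 h or 3 h or without 9 h replicate 1. A second Spry1 probe, at chr2:124216505-124216564 on rn4 beside chr2:124217774-124217833 for the reported one, correlated with it at r = 0.894 over the 18 arrays and was called at 1 h (difference 1.09, adjusted P = 0.0124), but not at 0.5 h (0.43, adjusted P = 0.283) or 3 h (0.25, adjusted P = 0.48). The mean of both probes was called at neither of those times (adjusted P = 0.0967 and 0.184).

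Spry2, which acts at the same step, changed later. Spry2 had log2 signals of -1.89, -1.52 and -1.39 at 0 h, -1.31, -1.70 and -1.503 at 0.5 h, with -0.97, -1.14 and -1.46 at 1 h. Then it stood at -1.05, -0.53 and -0.60 at 3 h, -0.40, -0.33 and -0.82 at 6 h, with -1.02, -1.08 and -0.54 at 9 h. The arrays of 3 h, 6 h and 9 h lay above all of 0 h, and those of 0.5 h and 1 h overlapped with 0 h. Spry2 was 1.84-fold higher at 3 h (log2 difference 0.88, SE 0.21, adjusted P = 0.0122), 2.12-fold at 6 h (adjusted P = 0.00176) and 1.65-fold at 9 h (adjusted P = 0.0147). The earlier differences were 0.10 for 0.5 h and 0.41 for 1 h (adjusted P = 0.825 and 0.245). Between 1 h and 6 h, within 1 scan day, it was 1.59-fold higher (adjusted P = 0.0269), which was lost without replicate 2 or 3 of 1 h or replicate 1 or 2 of 6 h (adjusted P = 0.0488 to 0.102). The 3 h call was lost without 3 h replicate 2, and the 9 h call without 0 h replicate 1 or 9 h replicate 3 (adjusted P = 0.0608 to 0.0728). Normexp correction ended both and that of 6 h against 1 h (adjusted P = 0.0599, 0.115 and 0.242), as did the fit of only the 6 arrays of each contrast, and the shift to the median ended the 9 h call. The F-test within the second scan day did not call Spry2 (adjusted P = 0.0975).

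Spry4, the Sprouty that also limits Raf activation, was called against 0 h only at 0.5 h. Its reported probe had log2 signals of -0.50, -0.53 and 0.01 at 0 h, 0.71, 0.77 and 0.74 at 0.5 h, with 0.41, 0.37 and -0.22 at 1 h. They were -0.44, -0.31 and -0.85 at 3 h, -0.01, 0.37 and -0.07 at 6 h, with 0.47, 0.49 and -0.13 at 9 h. The 3 arrays of 0.5 h lay above all others and within 0.03 (SD) of each other, and arrays of every later time overlapped with 0 h. Spry4 was 2.11-fold higher at 0.5 h, within 1 scan day (log2 difference 1.08, SE 0.22, adjusted P = 0.0139), a call lost without 0 h replicate 2 or 0.5 h replicate 3 (adjusted P = 0.0604 and 0.0521), under normexp correction (0.0965) and under the shift to the median (0.0562). At 3 h the difference was -0.20 (adjusted P = 0.591), and against 1 h it was -0.72 (adjusted P = 0.0529, not called). Without replicate 3 of 0 h, 1 h or 9 h both the latter difference (adjusted P = 0.0247 to 0.0462) and that of 9 h from 0 h, 0.62 with all arrays, were called (adjusted P = 0.017 to 0.0264). The second Spry4 probe, dimmer but well above background on all 18 arrays, gave another course and correlated with the first at r = 0.245. The F-test did not call it over all time points (adjusted P = 0.0513) or within the second scan day (0.537), so the F-test calls of Spry4 rest on the first probe. On the second probe all arrays after 0 h lay above those of 0 h, with differences of 0.98 at 0.5 h (adjusted P = 0.0718), 1.23 at 1 h (adjusted P = 0.0298, called) and 0.64 at 3 h (adjusted P = 0.174). The course of Spry4 at 1 h and 3 h therefore depends on the probe, while at 9 h the 2 probes gave 0.62 and 0.74. With the mean of both, Spry4 was also called at 1, 6 and 9 h (differences 0.88, 0.60 and 0.68).

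**Figure D3:**
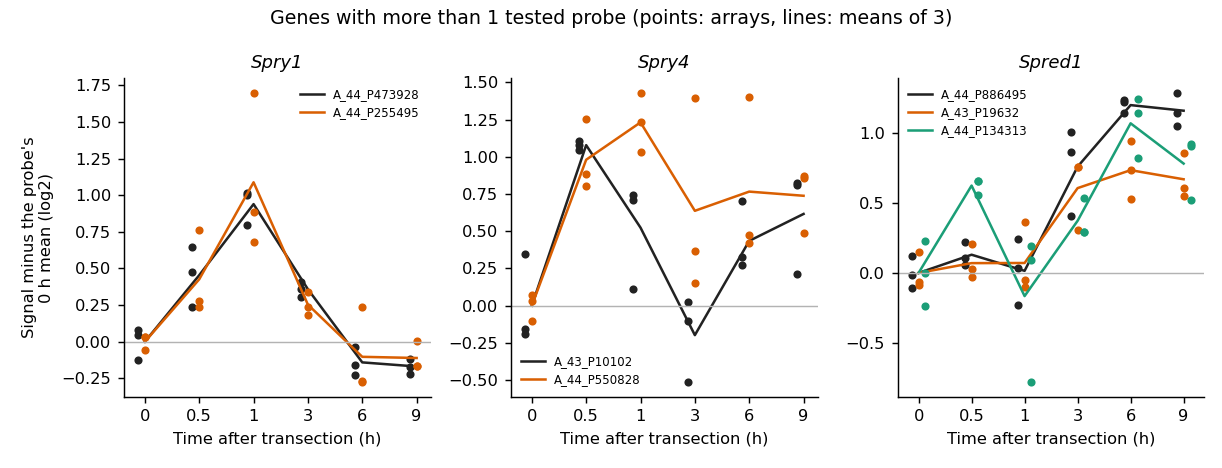
Log2 signal minus the 0 h mean of the same probe (vertical axis) against hours after transection, for the 3 genes with more than 1 tested probe. Points are arrays and lines means of 3 arrays. The Spry1 probes run together, and the Spred1 probes are all higher at 6 h and 9 h. The Spry4 probes part at 1 h (0.52 and 1.23) and 3 h (-0.20 and 0.64) and lie close again at 9 h (0.62 and 0.74).

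Spred1, which brings neurofibromin to the membrane to keep Ras inactive, was called from 3 h on. Spred1 had log2 signals of -2.52, -2.43 and -2.29 at 0 h, -2.36, -2.19 and -2.31 at 0.5 h, with -2.38, -2.17 and -2.64 at 1 h. From then on it had -2.01, -1.41 and -1.55 at 3 h, -1.18, -1.19 and -1.28 at 6 h, with -1.28, -1.37 and -1.13 at 9 h. The arrays of 0 h, 0.5 h and 1 h overlapped, and every array from 3 h on lay above all of them. Spred1 was 1.69-fold higher at 3 h than at 0 h (log2 difference 0.76, SE 0.15, adjusted P = 0.00398), 2.29-fold at 6 h (adjusted P = 7.5e-05) and 2.23-fold at 9 h (adjusted P = 7.23e-05). Against 1 h, within 1 scan day, it was 1.67-fold higher at 3 h (adjusted P = 0.00583) and 2.27-fold at 6 h (adjusted P = 0.000101). These calls held without any 1 array, and of them only 9 h against 0 h held under normexp background correction (adjusted P = 0.0532 to 0.525 for the others). With only the 6 arrays of the contrast both calls of 3 h were lost (adjusted P = 0.0541 against 0 h and 0.134 against 1 h). The other 2 Spred1 probes were called at 6 h and 9 h against 0 h with differences of 0.67 to 1.07, and 1 of them also at 3 h (0.61, adjusted P = 0.0229). The remaining one was not called at 3 h (0.37, adjusted P = 0.276), and at 0.5 h its arrays lay above all of 0 h without a call (0.62, adjusted P = 0.112), and the 3 probes correlated at 0.502 to 0.869.

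Over the 18 arrays 3 pairs among the 9 genes had the most similar courses. Dusp1 and Spry1 correlated at r = 0.878, Spry2 and Spred1 at 0.836, and Dusp5 and Spry2 at 0.805, followed by Dusp6 and Spry4 at 0.773. The most opposed pair was Spry1 and Spred1 at -0.628. These values are descriptions, since the arrays share time points and scan days. Among 12816 other genes, those most like Dusp1 were the transcription factor Jun (r = 0.967), Btg2 (0.966) and the nuclear receptor Nr4a1 (0.954). Jun was 3.82-fold higher at 0.5 h than at 0 h, against 6.66-fold for Dusp1. Those most like Dusp5 were the chemokine Ccl2 (0.975), Mt2A (0.972) and Tcim (0.966). Those most like Dusp6 were Tnfsf9 (0.959), Ptgs2 (0.891), the inducible cyclooxygenase, and Fam120b (0.877). Spred1 was most like Marchf3, Ddx21 and Dis3 (0.981 to 0.983), and Spry2 most like the cytokine Csf2, Steap4 and Chd7 (0.924 to 0.93). Spry1 was most like Ccrl2, Slc25a25 and Pxdc1 (0.928 to 0.937), Spry4 most like Cpox, Abcb1a and Fhip1b (0.905 to 0.917), Dusp4 most like Rnf182, Vom2r40 and Btn2a2 (0.884 to 0.894), and Dusp2 most like Bhlhe40, Cacna1i and Fut7 (0.825 to 0.829).

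Other dual-specificity phosphatases are given for comparison, in a list that also holds phosphatases with targets other than MAP kinases, such as Dusp11 and Ssh3. Of 17 tested, 0 were higher at 0.5 h (4.28% of all gene names), 1 at 1 h (Dusp8, 3.59%), 1 at 3 h (Dusp9, 7.16%), and 2 at both 6 h (12.1%) and 9 h (15.8%), Dusp9 and Dusp11, while 2 were lower at 3 h (Dusp19 and Ssh3) (6.83% of all gene names) and 6 at both 6 h (13%) and 9 h (15.4%). Names other than Dusp9, and Spry3, were chosen after their values were seen. Dusp9 (MKP-4) was 4.503-fold higher at 6 h and 5.29-fold at 9 h. The median differences of the 17 genes lay between -0.15 and 0.13. Of the other Sprouty and Spred genes, Spry3 was not called and Spred3 was 3.13-fold higher at 6 h.

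For the kinases that these proteins restrain, the counts are to be read against the shares of all gene names given above in each direction. Of 23 tested genes of the Ras, Raf, MEK and ERK cascade 7 were called in the F-test, and 0 were called at 0.5 h or 1 h against 0 h, while at 9 h 4 were higher (Map2k1, Mapk6, Rps6ka1 and Rps6ka3) and 4 lower (Araf, Mras, Rras and Sos2), names chosen after their values were seen apart from Rps6ka3, which was 2.15-fold higher at 3 h. The differences of Mapk3 (ERK1) from 0 h lay between -0.30 and 0.08, with no call. Of 30 tested genes of the JNK and p38 cascades 12 were called in the F-test, where 34.7% of all gene names were. Among them 4 were higher at both 0.5 h and 1 h, 7 at both 3 h and 6 h, and 6 at 9 h, while 3 were lower at 3 h (Map3k11, Map3k12 and Map3k13) and 2 at both 6 h and 9 h (Map2k6 and Map3k13), names chosen after their values were seen. Mapk8 (JNK1) had differences between -0.02 and 0.08, and Mapk14 (p38 alpha) was called in the F-test (adjusted P = 0.0192) but at no time against 0 h. The largest changes of that list were in Gadd45g (3.90-fold at 1 h), Gadd45b (3.38-fold at 3 h), the kinase Map3k6 (2.88-fold at 3 h) and Map3k8 (2.49-fold at 1 h). Map3k8 is also a kinase of MEK and was called at 0.5 h (1.84-fold) and 1 h. The count of 0 for the Ras, Raf, MEK and ERK list at these times therefore depends on where Map3k8 is placed.

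Many genes that ERK is known to turn on were called. Of 23 tested, 21 were called in the F-test, 12 were higher at 0.5 h (4.28% of all gene names) and 15 at 1 h (3.59%), with median differences of 1.05 and 1.24, then 13 at 3 h (7.16%), 10 at 6 h (12.1%) and 9 after 9 h (15.8%). In the other direction went 3 at 3 h (Ccnd1, Epha4 and Etv5) and 2 at both 6 h and 9 h (Etv1 and Etv5), which were lower, names chosen after their values were seen. Fos was 51.7-fold higher at 0.5 h and Egr1 14.8-fold at 1 h, Junb 12.5-fold at 1 h and Fosl1 110.5-fold at 6 h. Among 23 other negative regulators of growth factor and cytokine signals, 6 were higher at 0.5 h (4.28% of all gene names), 4 at 1 h (3.59%), 9 at 3 h (7.16%) and 7 at both 6 h (12.1%) and 9 h (15.8%). The counts at 0.5 h and 3 h include Lrig3, which was well above background on only 1 of 3 arrays at either time. In this list 1 was lower at 3 h (Dab2ip, 6.83% of all) and 2 at both 6 h (13%) and 9 h (15.4%). The latter were Dab2ip and Ptprr, names chosen after their values were seen. The largest were Zfp36 (24.7-fold at 0.5 h), Socs3 (15.1-fold at 1 h) and Socs1 (3.61-fold at 3 h), and Lrig3, not well above background on any 0 h array, was at least 3.72-fold higher at 6 h. Of 28 growth factors and receptors, 1, 3, 6, 8 and 10 were higher in the order of time (15.8% of all gene names at 9 h), and 0, 0, 2, 3 and 5 were lower (15.4% at 9 h). The 3 higher at 1 h were Gdnf, Hbegf and Areg, the former 2 named after their values were seen, and Areg was then well above background on 0 of 3 arrays, as at 0 h, so that its call there compares values not well above background. The 1 higher at 0.5 h was also Areg, again on 0 of 3 arrays, so that this count rests on such values alone. Nrg1, an ErbB ligand, was 39.0-fold higher at 9 h. Areg and Ereg, ligands of the EGF receptor and not well above background on any 0 h array, were at least 12.6-fold and 4.72-fold higher at 6 h.

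**Figure D4:**
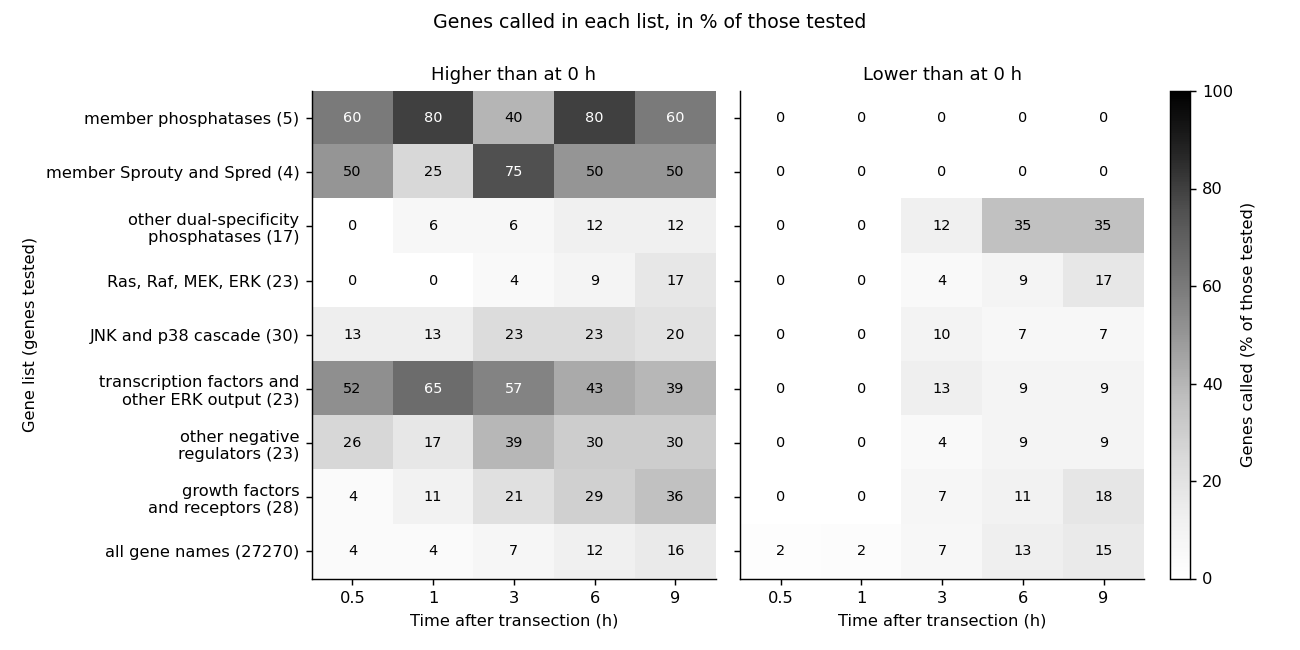
Share of the tested genes of each list called higher (left) or lower (right) than at 0 h, in %, at 5 times after transection. The count of tested genes stands after each list. The phosphatases and the Sprouty and Spred genes described here, in the upper rows, have no call on the right side, which for so few genes is no result about them. All 27270 gene names are in the bottom row.

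Markers of blood cells moved over the same hours. The summed signal of 10 tested neutrophil markers was between -1.46 and -0.75 on the log2 scale at 0 h, then 0.98 and 2.13 at 0.5 h, then 2.87 and 4.45 at 3 h, later 4.11 and 4.37 at 9 h. Of the 12 on the array 4 were well above background on all arrays of 0 h. Of the 10 tested, 3 were higher at 0.5 h (median difference 1.69), 4 at 1 h (2.05) and 8 at each of 3, 6 and 9 h. The early calls of Dusp1, Dusp2, Dusp5, Dusp6, Spry1 and Spry4 and the later ones of Dusp5, Spry2 and Spred1 fell in the same hours, and the part of such cells in their values was not tested. Summed macrophage markers lay between 7.61 and 7.84 at 0 h, 7.85 and 7.996 after 0.5 h, and 7.81 and 8.01 after 9 h. Of 12 tested macrophage markers 3 were higher and 1 lower at both 6 h and 9 h. Of 6 tested T cell markers 2 were higher at 6 h (12.1% of all gene names) and 3 at 9 h (15.8%), and 0 were lower. The part of these cells in the later calls, those of Dusp2 among them, was not tested. Summed erythroid markers lay between 6.54 and 8.05 at 0 h and between 8.28 and 8.56 after 0.5 h, and those of adipocytes between 5.86 and 6.64 and between 6.71 and 7.23. The macrophage, erythroid and adipocyte sums thus stood wholly above 0 h at 0.5 h, the time of the early calls, but a few bright genes can carry a sum. At 0.5 h 0 of 12 macrophage, 0 of 5 erythroid and 0 of 6 adipocyte markers were called, where 4.28% of all gene names were higher. Their median differences were -0.035, 1.31 and 0.795. Summed Schwann cell markers lay between 9.81 and 10.1 at 0 h and between 9.48 and 9.66 at 9 h. At 9 h, where 15.4% of all gene names were lower and 15.8% higher, 5 of 14 Schwann cell markers were lower and 2 higher, 8 of 10 fibroblast and perineurial markers were lower (median difference -0.52), and 3 of 11 endothelial markers were lower and 2 higher, and their part in the values of the 9 genes was not tested. Of the skeletal muscle markers, whose wide spread is given above, 0 of 11 were called, with median differences from 0 h of -1.78, -4.51, -3.53, -2.98 and -3.66 in the order of time, and their part in the values of the 9 genes was not tested.

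**Figure D5:**
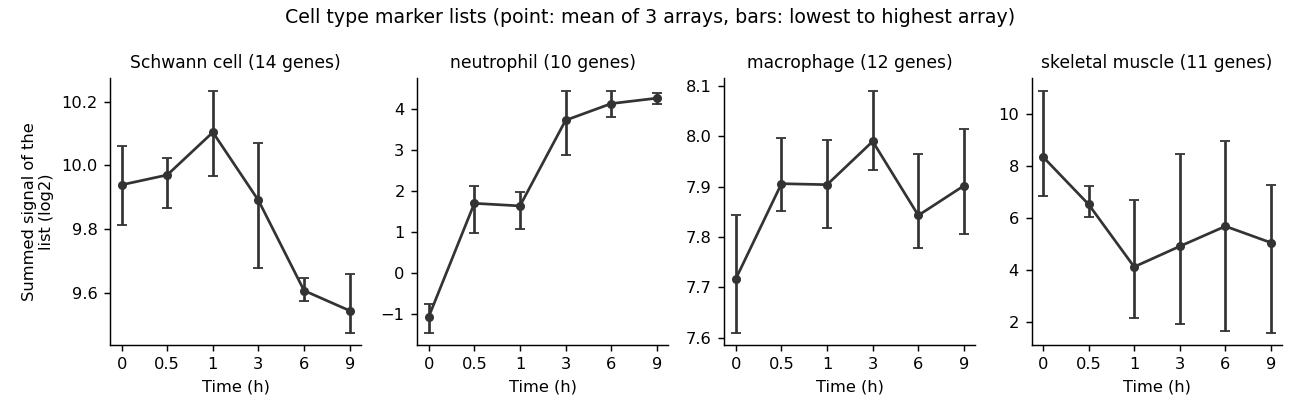
Log2 of the summed signal of 4 marker lists (vertical axes with separate scales) against hours after transection. Points are means of 3 arrays and bars run from the lowest to the highest array. Neutrophil markers rise from below 0 at 0 h to above 4 at 9 h, Schwann cell markers end slightly lower, and muscle markers spread widely at each time but 0.5 h.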

How the data were processed

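RNA of proximal sciatic nerve was measured on 18 arrays, grouped by the time in their titles. The authors deposited each array's scanner output from Agilent Feature Extraction (version 10.5.1.1 per the file headers, build rn4), in which the processed signal is an intensity with background subtracted. Their deposited value table holds log2 values with the same median on every array and served as an alternative.

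The log2 processed signal was centred on the 75th percentile of the array. Control and outlier spots were left out, and repeated spots of a probe entered as their mean. In all 32111 probes passed the background filter given in the report. A gene with several probes is represented by its brightest tested probe. limma (3.58.1, R 4.3.3) fitted the 6 time points in 1 model (prior degrees of freedom 1.94), as the nearest to the random variance model F-test of the study. Scripts were tested on simulated data. Python 3.11.15, pandas 2.3.3, numpy 2.4.6 and matplotlib 3.10.9 were used for sequences and figures. Gene names are those of the files, or RefSeq's where an accession matched (16336 probes).

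The 10 genes, the gene lists and the tests were chosen with earlier results of these data known. Named are all 10 genes, up to 4 called genes with at least a 2-fold change from each list, Mapk3, Mapk8, Mapk14, Fos and Egr1, and the 3 genes most like each of the 9. Other names, marked in the report, were chosen after their values were seen. Some genes that this rule names are not reported here. The number of arrays limits the precision. Alternatives were other background corrections, scalings, filters, blocks, weights, priors and thresholds, the mean of a gene's probes, and leaving out each array.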

Additional observations from a re-analysis of the deposited data

How the results depend on the processing

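The count of 8 genes called over all time points lay between 6 and 8 under every alternative. Normexp background correction lowered most counts: against 0 h, from 0.5 h to 9 h in the order of time, 3, 2, 1, 2 and 3 genes were higher, against 1 h 0 were higher and 1 was lower at 3 h and 1 was higher at 6 h, and 1 was called within the second scan day. A 2-fold limit beside the threshold left 3 genes higher than at 0 h at each of 0.5, 1 and 9 h and 2 at 3 h, and against 1 h 0 higher and 1 lower at 3 h and 1 higher at 6 h. A shift to the median left 3 higher at 0.5 h. Without the filter on dim probes 3 were higher at 3 h than at 0 h and 1 than at 1 h. With only the 6 arrays of a contrast 1 was higher at 3 h and 3 at 9 h than at 0 h, and 0 at 3 h than at 1 h. Array weights gave 4 lower at 3 h than at 1 h. The cause of these moves was not tested.

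With 1 array left out in turn, 3 to 5 genes were higher than at 0 h after 0.5 h, 2 to 5 after 3 h, and 4 to 6 after both 6 h and 9 h. Against 1 h, 1 to 2 were higher and 2 to 4 lower at 3 h, 1 to 3 higher and 2 to 3 lower at 6 h, and 2 to 3 lower at 9 h. Within the second scan day 3 to 5 were called.

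Replicate numbers are shared between time points, but arrays with the same number did not deviate together (median r = 0.04 over 45 pairs, of which 15 were over 0.1), so the number is only a name. The replicate block left 1 gene higher at 3 h than at 1 h, since Dusp5 missed the threshold (adjusted P = 0.0669), and ended the Spry1 call at 3 h against 0 h (adjusted P = 0.0513) while Spry4 was called at 3 h against 1 h (adjusted P = 0.0463). It changed no other call of the 9 genes.

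Over single genes and comparisons, 2302 values under an alternative kept their side of the threshold, 101 lost a call, 45 gained one, and none changed sign with a call. Signal over background limits Dusp4 and Dusp10.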
